A study of Mus musculus with 6 samples.

Results

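Cdkn1a, Ccng1, Btg2, Psrc1, Gadd45a, Plk2, Plk3, Sfn, Gtse1 and Ckap2 are genes that p53 induces and whose products slow or stop the cell cycle or act at the mitotic spindle. These 10 genes were taken by symbol from the 47719 genes listed for each mouse, 1 identifier for each symbol. Their mRNA was measured by RNA-Seq in the prostates of 6 mice of the strain B6.129S4-Trp53tm3.1Tyj/J, which carries the Trp53 R270H mutation in the germ line and so in every cell type. Wildtype mice 39 and 41 were Trp53+/+, heterozygous mice 37 and 40 were Trp53R270H/+, and homozygous mice 47 and 49 were Trp53R270H/R270H, the numbers being those of the animals. Every mouse was about 3 months old and received 5 Gy of whole body irradiation 6 h before its prostate was taken. No unirradiated mouse was among them, so the values show levels after irradiation and not the response to it, and the wildtype mice carried the same exposure as the mutants.

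p53 is a transcription factor that is stabilized after DNA damage and binds a site made of a pair of adjoining 10-base half-sites. Its best known arrest target, Cdkn1a, encodes p21, which inhibits cyclin-dependent kinases and so keeps the retinoblastoma family in its repressive form. Other arrest targets act at different points, such as the exit from G2, the turnover of p53 itself and the assembly of the spindle. The R270H change lies in the DNA-binding domain of p53.

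In the homozygous mice, Cdkn1a, Psrc1, Gtse1 and Ccng1 fell against wildtype, to 6.14%, 7.92%, 10.3% and 26.4% of the wildtype mean FPKM. FPKM is the number of fragments mapped to a gene, scaled by its transcript length and by the mapped fragments of the library. In the heterozygous mice these 4 genes and Ckap2 stood at 38.2% to 45.6% of the wildtype mean, but no gene of the transcriptome passed the adjusted test in that comparison. The values of Btg2, Plk2 and Ckap2 were ordered by the number of mutant alleles without passing the test. Their step from heterozygous to homozygous mice was not resolved. Gadd45a, Sfn and Plk3 did not follow that order.

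The sequences upstream of the members show where a p53 site lies close to the start of transcription. RefSeq promoter windows, which run from 250 bases before to 50 bases after an annotated start in GRCm38.p6, were matched by symbol for 10 of the 10 members, with 13 windows in all. Both strands were searched for the p53 half-site and for a full site of a pair of abutting half-sites with at most 2 mismatches in all and the 4-base core of each half-site whole. Full sites were found in windows of 3 members, Cdkn1a, Gtse1 and Ckap2, against 0.158% of the 32851 windows of all genes. The 3 sites are shown first, with the full site in capitals, 5′ to 3′ on the strand of the gene. The Cdkn1a stretch is chr17:29090729-29090978 (plus strand), the Gtse1 stretch is chr15:85859935-85859964 (plus strand) and the Ckap2 stretch is chr8:22185820-22186069 (minus strand).
Cdkn1a: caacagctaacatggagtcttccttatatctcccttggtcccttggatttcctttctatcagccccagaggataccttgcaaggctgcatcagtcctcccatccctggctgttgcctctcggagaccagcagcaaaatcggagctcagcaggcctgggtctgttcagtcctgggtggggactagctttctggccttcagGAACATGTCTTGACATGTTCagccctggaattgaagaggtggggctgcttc
Gtse1: gggaaaccggGAGCAAGTTGGGGCTTGCCT
Ckap2: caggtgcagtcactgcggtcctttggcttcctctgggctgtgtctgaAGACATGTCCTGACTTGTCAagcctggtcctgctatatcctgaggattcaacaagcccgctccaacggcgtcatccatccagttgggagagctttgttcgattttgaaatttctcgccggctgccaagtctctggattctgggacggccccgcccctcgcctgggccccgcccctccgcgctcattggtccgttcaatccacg
The Cdkn1a site spans positions -51 to -32 from the upstream of its RefSeq starts and has 1 mismatch. The other Cdkn1a start lies 2790 bases downstream, and its window holds neither kind of p53 site. The Gtse1 site spans positions -1 to 19 of the downstream of its RefSeq starts, 239 bases after the upstream one, and also has 1 mismatch. The Ckap2 site spans positions -203 to -184 and has 2 mismatches.

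A half-site without mismatch, alone or within a full site, was present in windows of 5 members, against 8.36% of all windows. In Gtse1 and Ckap2 it is part of the full site, and Cdkn1a has one within the full site and a further one at positions -73 to -64. Ccng1 and Gadd45a add the other members, and the Ccng1 stretch, chr11:40755317-40755536 on the minus strand, is shown with its half-site in capitals because this gene fell without a full site in the window.
Ccng1: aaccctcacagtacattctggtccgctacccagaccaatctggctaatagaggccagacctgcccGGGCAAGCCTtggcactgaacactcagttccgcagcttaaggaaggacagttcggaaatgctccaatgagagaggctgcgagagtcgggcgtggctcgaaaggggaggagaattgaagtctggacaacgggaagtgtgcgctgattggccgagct
Psrc1 also fell in homozygous mice and has neither kind of p53 site in its windows. Its window holds TTCGAA, which is present in 1.56% of all windows. TTCGAA is a form of the cell cycle homology region through which p21 and the retinoblastoma family repress mitotic genes. Psrc1 was lowest in the homozygous mice, as was Cdkn1a, and any part of this motif in the level of Psrc1 was not tested. The stretch chr3:108383694-108383813 on the plus strand ends with TTCGAA in capitals.
Psrc1: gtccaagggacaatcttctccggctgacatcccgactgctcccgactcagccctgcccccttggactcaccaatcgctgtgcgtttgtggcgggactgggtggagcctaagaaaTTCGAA
The related TTTGAA was found in Ckap2, against 17.9% of all windows, and CCAAT, bound by NF-Y, in 7 members, against 37.4%. Btg2 and Plk2 share TGACGTCA, the cAMP response element, found in 1.79% of all windows. Their stretches, chr1:134079256-134079355 on the minus strand and chr13:110394944-110395043 on the plus strand, show it in capitals.
Btg2: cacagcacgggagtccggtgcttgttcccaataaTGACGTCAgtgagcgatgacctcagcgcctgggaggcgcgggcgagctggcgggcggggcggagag
Plk2: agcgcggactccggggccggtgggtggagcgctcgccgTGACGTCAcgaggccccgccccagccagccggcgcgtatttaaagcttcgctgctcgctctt
Matches are descriptions of these letters. The rest of each gene and more distant sequence were not searched, and binding was not measured.

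**Figure D1:**
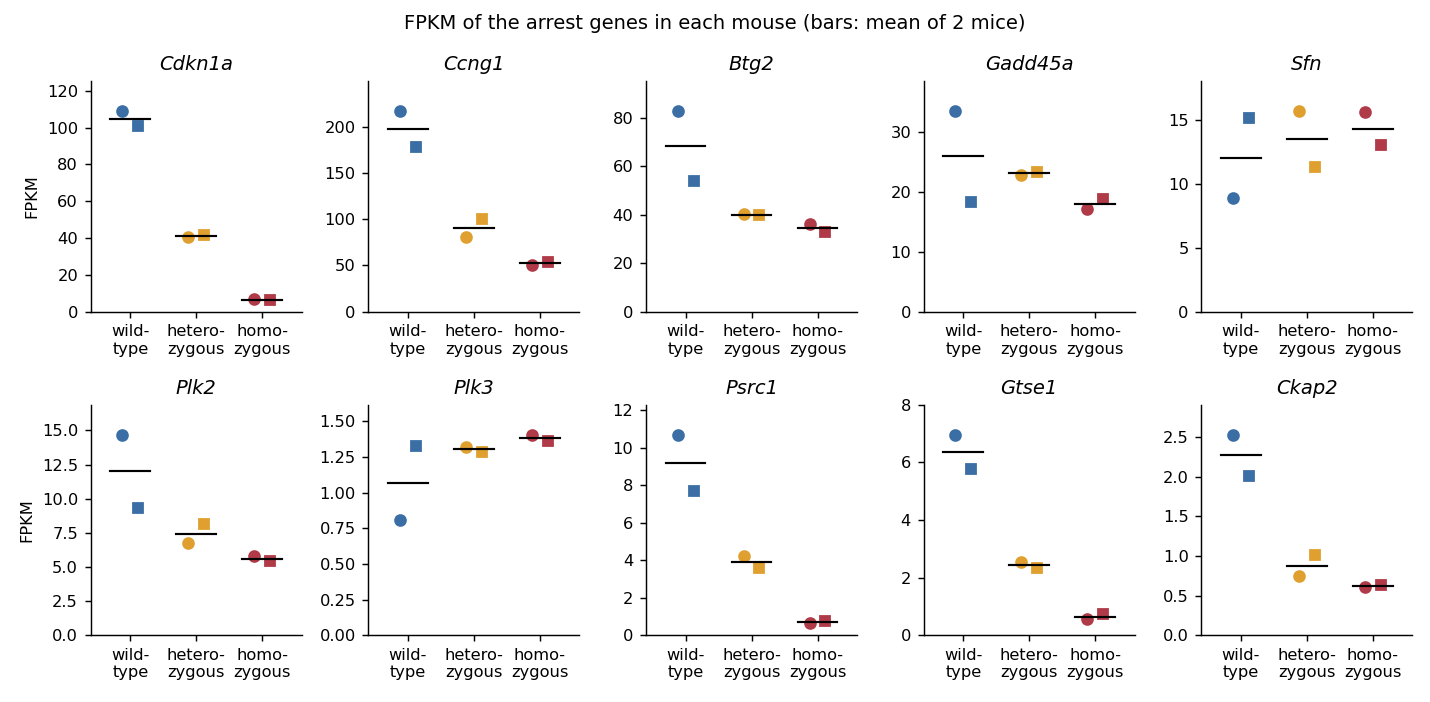
FPKM (linear axis from 0) of the 10 arrest genes in each of the 6 mice. The circle is the first and the square the second mouse of each genotype (39 and 41, 37 and 40, 47 and 49), and the bar is their mean. Cdkn1a falls from 101 or more in wildtype to 6.70 or less in homozygous mice, whereas wildtype and heterozygous values overlap for Gadd45a, Sfn and Plk3.

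Cdkn1a, listed under ENSMUSG00000023067 and located at chr17:29090976-29100727, measured 109 and 101 FPKM in wildtype mice 39 and 41. It measured 40.5 and 41.4 FPKM in heterozygous mice 37 and 40, and 6.70 and 6.17 FPKM in homozygous mice 47 and 49. The 3 genotypes were thus widely separated, and the mice of one genotype lay close together. The means were 105 ± 5.88, 41.0 ± 0.661 and 6.43 ± 0.380 FPKM (SD, n = 2 each). The percentile rank of Cdkn1a among the tested genes, averaged over the 2 mice of a genotype, was 95.1 in wildtype and 39.4 in homozygous mice. Its log2(FPKM + 0.1) fell by 4.01 in homozygous against wildtype mice (95% confidence interval -4.28 to -3.73, limma adjusted p = 0.00075), a 16.3-fold difference of the FPKM means. The heterozygous difference from wildtype was -1.35 (-1.63 to -1.08, limma adjusted p = 0.127). Between homozygous and heterozygous mice Cdkn1a fell by 2.65 on the log2 scale (-2.93 to -2.38, limma adjusted p = 0.00398), and it was the only gene with a lower call in that comparison.

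Ccng1 encodes cyclin G1, which recruits a phosphatase to MDM2 and takes part in the feedback on p53. Listed under ENSMUSG00000020326 at chr11:40748552-40755311, it was the most abundant member in every genotype. It measured 217 and 179 FPKM in the wildtype mice, 80.6 and 99.7 FPKM in the heterozygous mice, and 50.1 and 54.2 FPKM in the homozygous mice. No values overlapped between genotypes, though the spread within the wildtype and heterozygous pairs was wider than for Cdkn1a. The homozygous mean was 52.2 ± 2.88 FPKM against 198 ± 27.1 FPKM in wildtype (SD, n = 2 each). On the log2 scale Ccng1 fell by 1.91 (-2.33 to -1.50, limma adjusted p = 0.0291), and the heterozygous difference was -1.13 (-1.55 to -0.72, limma adjusted p = 0.221). Its paralog Ccng2 measured 24.0 and 18.5 FPKM in wildtype and 15.4 and 16.7 FPKM in homozygous mice, with a log2 difference of -0.39 (limma adjusted p = 0.294).

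Btg2 encodes an antiproliferative adaptor of the deadenylase complex and is also an immediate early gene. It measured 82.7 and 53.9 FPKM in wildtype mice 39 and 41, 40.3 and 39.8 FPKM in the heterozygous mice, and 36.2 and 32.7 FPKM in the homozygous mice. Both mutant genotypes lay below both wildtype mice, but mice 39 and 41 differed from each other more than the 2 mutant genotypes did. The log2 difference of homozygous from wildtype mice was -0.96 (-1.48 to -0.43, limma adjusted p = 0.146). The paralogs Tob1 and Btg1 had differences of a like size, whereas those of Btg3 and Tob2 were 0.36 and 0.14 (limma adjusted p = 0.585 and 0.689). Tob1 measured 77.5 and 93.9 FPKM in wildtype and 37.1 and 38.8 FPKM in homozygous mice (log2 difference -1.17, limma adjusted p = 0.0506), and Btg1 measured 99.6 and 79.3 against 47.9 and 51.0 FPKM (log2 difference -0.85, limma adjusted p = 0.110).

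Gadd45a encodes a stress protein that binds PCNA and inhibits the CDK1 and cyclin B1 complex, and Sfn encodes 14-3-3 sigma, which holds that complex in the cytoplasm. Gadd45a measured 33.4 and 18.3 FPKM in the wildtype mice, 22.9 and 23.3 FPKM in the heterozygous mice, and 17.2 and 18.8 FPKM in the homozygous mice. The wildtype pair overlapped both mutant genotypes, with mouse 39 above all other mice and mouse 41 among the homozygous mice. Its log2 difference of homozygous from wildtype mice was -0.46 (-1.14 to 0.23, limma adjusted p = 0.428). Sfn measured 8.89 and 15.1 FPKM in the wildtype mice, 15.7 and 11.3 FPKM in the heterozygous mice, and 15.6 and 13.1 FPKM in the homozygous mice. All 3 genotypes overlapped. The log2 difference of Sfn was 0.30 (-0.43 to 1.02, limma adjusted p = 0.622), an interval that holds a change in either direction. Sfn is an epithelial gene, and the summed FPKM of 12 basal and squamous markers was likewise lowest in mouse 39, at 151, against 158 to 219 in the other mice. The part of this in the Sfn values was not tested.

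Plk2 and Plk3 encode polo-like kinases of the stress response, unlike Plk1 and Plk4, which drive mitosis and centriole duplication. Plk2 measured 14.7 and 9.34 FPKM in the wildtype mice, 6.74 and 8.15 FPKM in the heterozygous mice, and 5.78 and 5.47 FPKM in the homozygous mice. The genotypes did not overlap. Its log2 difference of homozygous from wildtype mice was -1.04 (-1.63 to -0.46, limma adjusted p = 0.150). Plk3 was the least abundant member in wildtype, at 0.807 and 1.33 FPKM, and measured 1.32 and 1.29 FPKM in the heterozygous and 1.40 and 1.36 FPKM in the homozygous mice. Mouse 39 lay below the other 5 mice, the heterozygous values overlapped wildtype, and both homozygous values lay slightly above the other 4 mice. Its log2 difference was 0.38 (-0.47 to 1.23, limma adjusted p = 0.588). Plk2 and Plk3 thus had differences of opposite sign, though that of Plk3 was -0.028 in heterozygous mice when mouse 39 was left out, and the difference between the 2 genes was not tested.

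Psrc1, Gtse1 and Ckap2 encode proteins of the spindle and its microtubules, and Gtse1 also binds p53 and stabilizes p21. Psrc1 (chr3:108383839-108388231) measured 10.7 and 7.66 FPKM in the wildtype mice, 4.25 and 3.59 FPKM in the heterozygous mice, and 0.660 and 0.791 FPKM in the homozygous mice. Gtse1 (chr15:85859745-85876573) measured 6.96 and 5.76 FPKM in wildtype, 2.53 and 2.32 FPKM in heterozygous, and 0.566 and 0.738 FPKM in homozygous mice. Both genes separated the 3 genotypes without overlap, with homozygous values near the low end of what was tested. Psrc1 fell by 3.47 on the log2 scale in homozygous mice (-4.05 to -2.89, limma adjusted p = 0.0126) and Gtse1 fell by 3.11 (-3.68 to -2.53, limma adjusted p = 0.0175). The ratios of the FPKM means were 12.6-fold and 9.75-fold. With a pseudocount of 1 in place of 0.1 the log2 differences were -2.54 and -2.15, and both kept their calls (limma adjusted p = 0.0171 for each). Ckap2 (chr8:22168160-22185819) measured 2.53 and 2.01 FPKM in wildtype, 0.750 and 1.01 FPKM in heterozygous, and 0.612 and 0.633 FPKM in homozygous mice. Its values did not overlap between genotypes, and its log2 difference of homozygous from wildtype mice was -1.70 (-2.55 to -0.86, limma adjusted p = 0.129), or -1.01 with a pseudocount of 1. Ckap2 passed the filter on low values, a mean of at least 1 FPKM over the 6 mice, only through the wildtype mice. An approximate conversion of FPKM to fragments put the lowest values of Psrc1, Gtse1 and Ckap2 at 32, 36 and 38 fragments, for a counting SD of 16.2% to 17.7%, so that their order among the homozygous mice was not resolved. Ckap2 had 52 and 69 such fragments in the heterozygous and 38 and 55 in the homozygous mice. Its step between these genotypes was not resolved either.

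**Figure D2:**
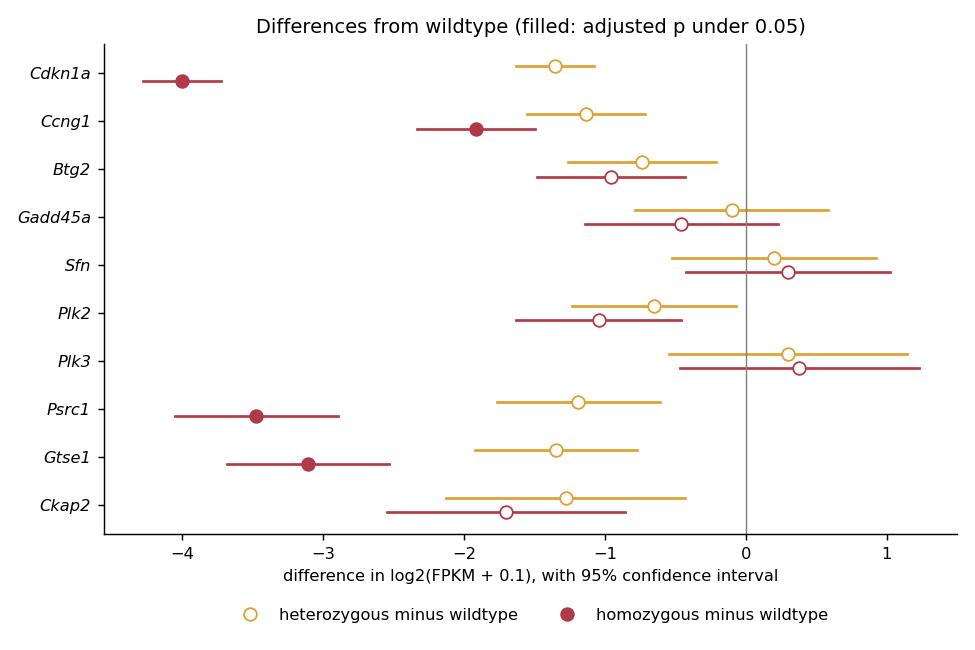
Differences from wildtype in log2(FPKM + 0.1) for the 10 members, with 95% confidence intervals from limma (n = 2 mice a genotype). Filled points have an adjusted p under 0.05, and these are the homozygous differences of Cdkn1a (-4.01), Psrc1 (-3.47), Gtse1 (-3.11) and Ccng1 (-1.91).

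Counted over the set, 4 of 10 members fell in homozygous against wildtype mice and 0 rose. Among all 13818 tested genes 36 had an adjusted p under 0.05 and a lower level, which is 0.261%. At an unadjusted p under 0.05, 7 members were lower, against 9.32% of all genes, and 0 were higher, against 8.65%. The median log2 difference was -1.37 over the members and -0.04 over all tested genes. Without Ckap2, which passed the filter only through wildtype, 6 of 9 members were lower at an unadjusted p under 0.05 and the median was -1.04. In heterozygous against wildtype mice 0 of 10 members passed limma with adjustment, as did 0 of 13818 genes (0%). At an unadjusted p under 0.05, 7 members were lower and 0 higher, against 2.21% of all genes lower and 4.66% higher. The median difference was -0.93 over the members and -0.01 over all tested genes, and without Ckap2 the count was 6 of 9 and the median -0.74. Both comparisons share the wildtype mice, so the high values of mouse 39 for Btg2, Gadd45a and Plk2 enter each of them. In homozygous against heterozygous mice 1 member, Cdkn1a, had a lower call, against 0.00724% of all genes (0.0145% in either direction). At an unadjusted p under 0.05, 4 were lower there (Cdkn1a, Psrc1, Gtse1 and Ccng1) and 0 higher, against 4.42% and 1.97%. A moderated F-test of the 3 genotypes called Cdkn1a, Psrc1 and Gtse1 (limma adjusted p = 0.00213, 0.0350 and 0.0499), against 0.101%.

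The 4 calls did not rest equally on all mice. Cdkn1a kept its call when any 1 mouse was left out, with limma adjusted p between 0.00856 and 0.0348. Psrc1, Gtse1 and Ccng1 lost theirs without wildtype mouse 39, heterozygous mouse 37 or 40, or homozygous mouse 47, while their log2 differences stayed between -3.71 and -3.24, -3.27 and -2.94, and -2.05 and -1.77. Ccng1 also lost its call without homozygous mouse 49 (limma adjusted p = 0.0542). The heterozygous mice enter these homozygous differences from wildtype only through the shared estimate of the spread. Some mice stood apart in tissue markers. All 8 seminal vesicle genes tested were lower in wildtype mouse 39 than in wildtype mouse 41, for example 1731 against 24908 FPKM for Svs5. In homozygous mouse 47, Svs2, Svs4 and Svs5 were listed at 0, whereas Svs1, Svs3a, Svs3b and Svs6 measured 5141 to 26147 FPKM against at most 1021 in the other mice. Svs2 was listed at 0 in homozygous mouse 49 as well, against 256 to 14734 FPKM in the wildtype and heterozygous mice, and it was the 1 gene of this list that fell (limma adjusted p = 0.0477). The luminal prostate gene Pbsn measured 257 FPKM in mouse 47 and 7329 or more in the others. Of 10 luminal genes tested, limma put 4 lower in homozygous mice at an unadjusted p under 0.05, against 9.32% of all genes. After adjustment 0 were called, and the median log2 difference from wildtype was -0.66. For mice 39, 41, 37, 40, 47 and 49 the luminal sums were 64864, 26986, 31272, 36883, 36598 and 30128 FPKM. The wildtype pair thus spanned the other mice. The part of these differences in the levels of the members was not tested.

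Markers of skeletal muscle, which is not a part of the prostate gland, were also present. The summed FPKM of 10 skeletal muscle markers, all detected in every mouse, was 1566 and 2300 in the wildtype, 4403 and 4637 in the heterozygous, and 5418 and 4712 in the homozygous mice. Of these markers 9 were higher in homozygous mice at an unadjusted p under 0.05, against 8.65% of all genes, and 0 after adjustment. Their part in the levels of the members was not tested. In RNA from whole tissue, fewer cells of a type and less RNA per cell cannot be told apart.

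**Figure D3:**
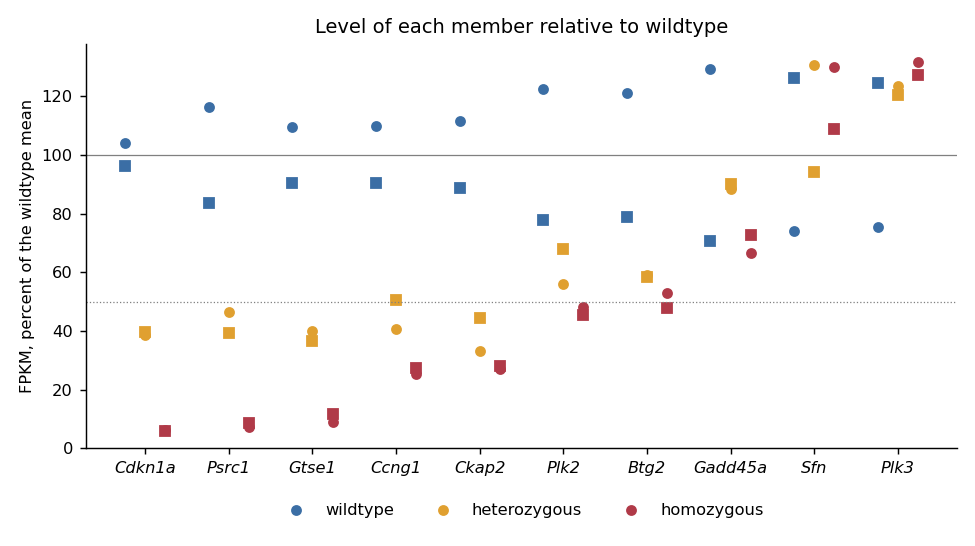
FPKM of each member as a percent of its wildtype mean (linear axis from 0, with lines at 100 and 50), 1 point a mouse, with the same circles and squares for the first and second mouse of a genotype. The heterozygous means of Cdkn1a, Psrc1, Gtse1, Ccng1 and Ckap2 lie between 38.2% and 45.6%, whereas the homozygous means of these genes spread from 6.14% to 27.5%.

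The design of 0, 1 and 2 mutant alleles allows the members to be ordered by gene dosage. In 7 of 10 members, Cdkn1a, Ccng1, Btg2, Psrc1, Plk2, Gtse1 and Ckap2, the heterozygous pair lay wholly between the wildtype pair above and the homozygous pair below. Since Ckap2 was tested only because of its wildtype level, the count without it is 6 of 9. The same falling order was seen in 4.98% of all tested genes, and 0 members had the rising order, seen in 3.85%. Gadd45a kept only the last step, with the homozygous pair wholly below the heterozygous pair. Step by step, the homozygous pair lay wholly below the wildtype pair in 7 members (28.7% of all genes), the heterozygous pair below the wildtype pair in 7 (19.9%) and the homozygous pair below the heterozygous pair in 8 (24.1%).

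These 7 genes differed in how much of the fall was already present with 1 mutant allele. The heterozygous mean stood at 39.1% of wildtype for Cdkn1a, 42.8% for Psrc1, 38.2% for Gtse1, 45.6% for Ccng1 and 38.8% for Ckap2. The homozygous mean was 6.14%, 7.92% and 10.3% of wildtype for the first 3 of these genes and 26.4% and 27.5% for Ccng1 and Ckap2, and the differences between genes were not tested. Btg2 and Plk2 were less separated, with heterozygous means of 58.6% and 62.0% and homozygous means of 50.4% and 46.9%. Expressed as a share of the whole difference in FPKM between wildtype and homozygous mice, the heterozygous mice had lost from 62.2% (Psrc1) to 84.4% (Ckap2). All 7 heterozygous means therefore lay below the FPKM midpoint of wildtype and homozygous, for example 41.0 FPKM against a midpoint of 55.6 FPKM for Cdkn1a. The shares of Btg2, Plk2 and Ckap2 include a step from heterozygous to homozygous mice that was not resolved.

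The picture depended on the scale. In log2(FPKM + 0.1) the heterozygous mice had lost 33.8% of the difference for Cdkn1a, 34.3% for Psrc1 and 43.4% for Gtse1, so these lay above the log2 midpoint. Ccng1, Plk2, Ckap2 and Btg2 had lost 59.2% to 77.0% and lay below it. The heterozygous level minus the log2 midpoint was 0.65 for Cdkn1a (0.41 to 0.89) and 0.55 for Psrc1 (0.04 to 1.05), at unadjusted p = 0.000631 and 0.0374 from limma. Neither passed adjustment (limma adjusted p = 0.980 for both), and 2 of 10 members against 3.1% of all genes had an unadjusted p under 0.05. No gene passed the adjusted test of the midpoint (0%).

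The members were also compared by their distance over the 6 mice, a description of the same values. The Euclidean distance between log2(FPKM + 0.1) values, each centred on the mean of its gene, was smallest for Btg2 and Plk2 (0.27), followed by Ccng1 and Ckap2 (0.37) and by Plk3 and Sfn (0.37). Psrc1 lay 0.57 from Gtse1 and 0.68 from Cdkn1a, whereas Cdkn1a lay 1.10 from Gtse1 and 2.32 from Ccng1. Ckap2 lay 0.79 from Plk2 and 0.86 from Btg2, and Ccng1 lay 0.92 from Plk2, so the distances did not divide the members into separate groups. Btg2 and Plk2 are also the 2 members whose windows hold TGACGTCA, as do 2.97% of the windows of tested genes. That motif was chosen after the data were seen, and a link between it and the distance was not tested. All these distances rest on the same 6 libraries.

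Outside the set, genes with predicted, RIKEN clone and similar placeholder names were left out. Of the rest, the 5 genes closest to Cdkn1a were Eda2r (0.66), Ddias (0.99), Igkv17-121 (1.02), Gdf15 (1.12) and Tgfb1i1 (1.36, under ENSMUSG00000108631). Ddias, Igkv17-121 and this Tgfb1i1 entry passed the filter on low values only through the wildtype mice. The Tgfb1i1 entry measured 0.0032 FPKM or less in the homozygous mice. Eda2r, a death receptor of the TNF receptor family, measured 9.83 and 8.76 FPKM in wildtype, 3.28 and 4.09 FPKM in heterozygous, and 0.299 and 0.544 FPKM in homozygous mice. Igkv17-121 is an immunoglobulin gene segment listed at 0 in both homozygous mice. With the same names left out, the 5 genes closest to Ccng1 were Zfp365 (0.34), Tnfrsf10b (0.39), Trp53inp1 (0.41), Zmat3 (0.41) and Cpt1c (0.49). Zfp365 measured 4.10 and 3.80 FPKM in wildtype, 1.74 and 1.62 FPKM in heterozygous, and 1.01 and 1.06 FPKM in homozygous mice, the same steps as Ccng1 at a far lower level.

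The order of the members by level changed with genotype. In wildtype mice Ccng1 and Cdkn1a led, followed by Btg2, Gadd45a, and then Plk2 and Sfn, whose means did not differ beyond their spread. In homozygous mice Ccng1 was followed by Btg2, Gadd45a and Sfn, with Cdkn1a next at 6.43 FPKM, close to Plk2 at 5.63 FPKM. Psrc1, Gtse1 and Ckap2 followed at 0.726, 0.652 and 0.622 FPKM, which lay within the spread of the pairs, and all 3 were now below Plk3 at 1.38 FPKM. The summed FPKM of the 10 members was 487 and 393 with 0 mutant alleles, 216 and 232 with 1 and 135 and 134 with 2. Cdkn1a and Ccng1 made up 67.0% and 71.1% of that sum with 0 mutant alleles, 56.2% and 60.9% with 1 and 42.2% and 45.1% with 2.

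**Figure D4:**
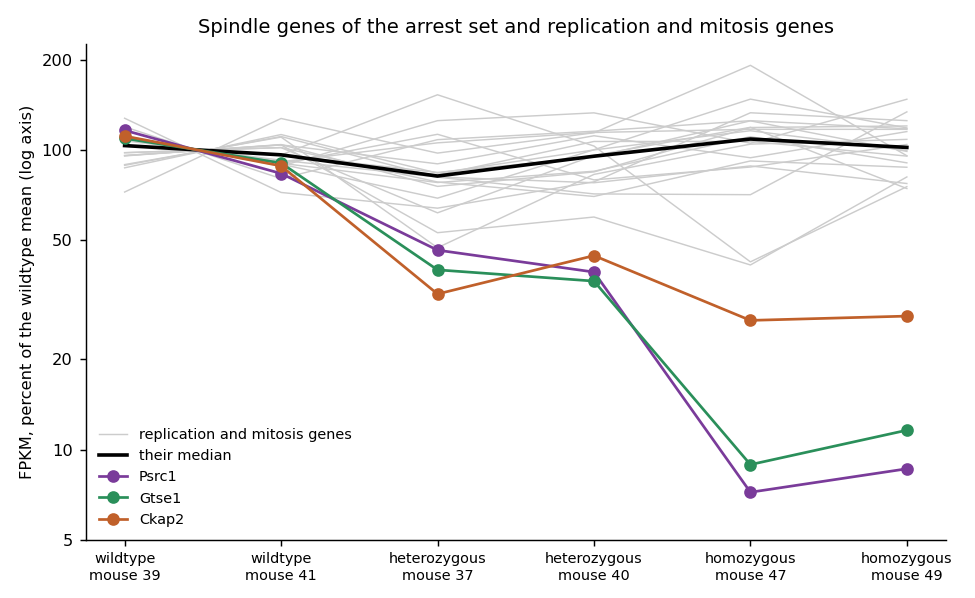
FPKM of Psrc1, Gtse1 and Ckap2 in each mouse as a percent of the wildtype mean (log axis), beside 20 tested replication and mitosis genes (grey lines) and their median (black line). The median stays between 81.9% and 109% in all 6 mice, while the homozygous means of Psrc1 and Gtse1 are 7.92% and 10.3%.

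Psrc1, Gtse1 and Ckap2 are also expressed in dividing cells, so they were set beside genes of replication and mitosis. Of 28 such genes 20 passed the filter on low values, and 0 fell and 0 rose in homozygous against wildtype mice in limma, against 0.384% of all genes called. At an unadjusted p under 0.05, 1 was lower and 0 higher, against 9.32% and 8.65%. The summed FPKM of the 28 genes was 70.6 and 67.8 with 0 mutant alleles, 60.0 and 65.5 with 1 and 70.0 and 69.7 with 2. The homozygous sums thus lay inside the wildtype range while Psrc1 and Gtse1 stood at 7.92% and 10.3% of wildtype. Top2a, the topoisomerase of dividing cells, measured 6.17 and 6.42 FPKM in wildtype and 5.79 and 5.52 FPKM in homozygous mice. The genes of this list with the smallest p were Tk1 (log2 difference -0.80), Cdc20 (-0.74), Tyms (-0.26) and Mcm2 (0.23), with limma adjusted p between 0.275 and 0.466. Ckap2l, the paralog of Ckap2, measured 1.61 and 1.32 FPKM in wildtype, 0.757 and 0.923 FPKM in heterozygous, and 1.31 and 1.03 FPKM in homozygous mice. It was thus lowest in the heterozygous mice, unlike Ckap2. Plk1 had the same shape, at 1.52 and 1.24, 0.659 and 0.803, and 1.18 and 1.00 FPKM.

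Btg2, Gadd45a, Plk2 and Plk3 also respond to growth factors and stress without p53. The summed FPKM of 22 immediate early genes was 402 and 514 with 0 mutant alleles, 494 and 409 with 1 and 363 and 384 with 2. Of 19 tested genes 0 passed limma in homozygous against wildtype mice, against 0.384% of all genes. At an unadjusted p under 0.05, 2 were lower and 0 higher, against 9.32% and 8.65%, and the median log2 difference was -0.35. Between the wildtype mice the sum was lower in mouse 39, in which Btg2, Gadd45a and Plk2 were higher and Plk3 was lower. The part of the immediate early state in the levels of these members was not tested.

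The other genes of the arrest pathway gave 0 calls in limma in homozygous against wildtype mice. Among all tested genes 0.384% were called, so 0 calls in lists of this size do not set them apart. At an unadjusted p under 0.05, 9.32% of all genes were lower and 8.65% higher. The remaining CDK inhibitors gave 0 of 5, with 2 higher at an unadjusted p under 0.05, and p27 (Cdkn1b) had a mean of 19.5 FPKM in wildtype and 26.1 and 25.9 FPKM in homozygous mice (log2 difference 0.41, limma adjusted p = 0.191). The log2 differences of Cdkn2c, Cdkn1c and Cdkn2b were 0.55, 0.50 and -0.53. Of 15 cyclins, CDKs and CDC25 phosphatases 10 were tested and 0 passed, with 2 higher at an unadjusted p under 0.05. Cyclin D1 (Ccnd1), the partner of CDK4 and CDK6, measured 33.3 and 45.5 FPKM in wildtype, 37.8 and 43.4 FPKM in heterozygous, and 92.1 and 62.9 FPKM in homozygous mice (log2 difference 0.96, limma adjusted p = 0.168). The phosphatase gene Cdc25b had a difference of 1.07 (limma adjusted p = 0.157), and Ccnd2 and Cdk6 had 0.38 and 0.51. Of 18 checkpoint kinase and pocket protein genes 0 passed, with 2 lower at an unadjusted p under 0.05, led by E2f3 (-0.75), Wee1 (-0.95), Atm (1.19) and E2f2 (-0.51). Of 17 paralogs of the members 0 passed, with 2 lower at an unadjusted p under 0.05, which were Tob1 and Btg1.

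**Figure D5:**
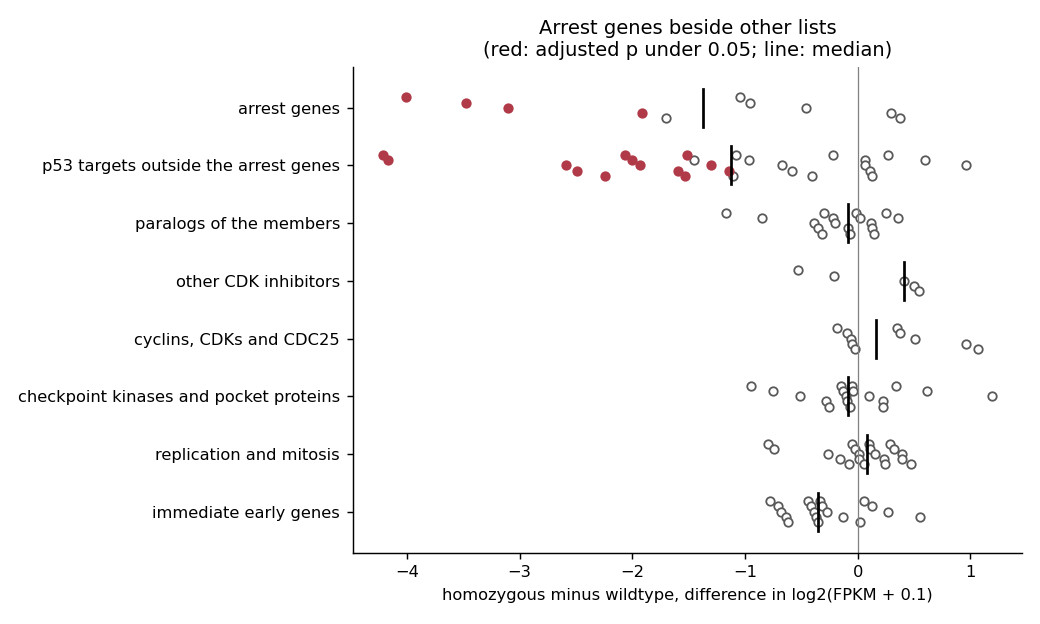
Homozygous minus wildtype difference in log2(FPKM + 0.1) for the 10 arrest genes and 7 other lists, 1 point a tested gene. Red points have an adjusted p under 0.05 and black lines are list medians, which are -1.37 for the arrest genes, -1.12 for other p53 targets and between -0.35 and 0.41 for the other 6 lists.

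p53 targets of other functions, such as apoptosis and metabolism, were counted in the same way. Of 28 tested targets outside the set 13 fell and 0 rose in homozygous mice, with a median log2 difference of -1.12, near the -1.37 of the arrest genes. At an unadjusted p under 0.05, 19 were lower and 2 higher, against 9.32% and 8.65% of all genes. Most of the list was thus lower, but not every gene. Sesn2, a sestrin of the oxidative stress response, measured 35.9 and 35.7 FPKM in wildtype, 15.1 and 17.1 FPKM in heterozygous, and 5.98 and 5.74 FPKM in homozygous mice, and fell by 2.59 on the log2 scale (limma adjusted p = 0.00390). The nuclease gene Aen and Eda2r fell by 2.49 and 4.21 (limma adjusted p = 0.00470 and 0.0128). Phlda3, an inhibitor of AKT, measured 115 and 100.3 FPKM in wildtype and 28.6 and 25.0 FPKM in homozygous mice and also fell (95% confidence interval -2.33 to -1.67, limma adjusted p = 0.0126). Both lists were drawn from knowledge of p53 with results of these mice in view, so their counts are not independent evidence of direction.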

How the data were processed

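RNA from 6 snap-frozen prostates was made into stranded mRNA libraries and sequenced as read pairs. The authors used HISAT for alignment to GRCm38, then Cufflinks and Cuffnorm, and deposited 1 table of gene FPKM a mouse, already corrected for gene length and mapped fragments. Their versions and annotation are not given in the sources used here. Genotypes were taken from the labels. Gene positions are from GENCODE M21. The members and lists were chosen with earlier results of these data known.

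Differences were fitted with limma 3.58.1 in R 4.3.3 (eBayes with an intensity trend) to log2(FPKM + 0.1) of 13818 genes, those whose FPKM averaged 1 or more, with all 6 mice and 3 genotypes in 1 model. Adjustment was by Benjamini-Hochberg over these genes, with a threshold of 0.05. A fold change on this scale understates the change of low genes. Nothing says that mice of a genotype came from separate litters, and p-values measure the spread between these mice.

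All 10 members and up to 4 genes of each pathway list with the smallest p were named. Some paralogs were named beside their member, and Top2a and Zfp365 values were given besides. Fragment counts are not in the tables. The FPKM worth 1 fragment in low genes gave depths of 0.79 to 1.07 relative to mouse 39, and the fragments of a member assume its longest transcript. These cover counting error only. A planned wider search around each start was not run, because a genome sequence was not used here. RefSeq windows took its place, and the half-site alone and the other motifs were chosen after seeing the data. On simulated data for homozygous against wildtype mice, with 13818 genes, log2 changes of -1, -2 and -3 were called for 18.0%, 64.0% and 94.0% of the genes given them, with 7 false calls. Figures were drawn with matplotlib 3.10.9 and other values computed with Python 3.11.15.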

Additional observations from a re-analysis of the deposited data

How the results depend on the processing

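No paired analysis was possible because the groups share no animal numbers. The members called in homozygous against wildtype mice numbered 4. They were 1 without a filter on low values, 2 of 6 tested with a mean FPKM of at least 5, 0 with the variance of each gene alone (7 members at an unadjusted p under 0.05) and 1 to 4 leaving out 1 mouse, where a lone mouse was assumed to vary like the others. Quantile normalization and a fit without the intensity trend each gave 3. The members called in homozygous against heterozygous mice numbered 1, and 0 with each gene alone or 0 to 1 leaving out 1 mouse, lost without heterozygous mouse 37 or 40. The members called in the test of 3 genotypes numbered 3, and 1 without a filter, 1 with a mean of at least 5, 1 after quantile normalization, 0 with each gene alone and 0 to 1 leaving out 1 mouse. Members ordered by allele number were 7, and 4 of 6 with a mean of at least 5, 6 after quantile normalization, or 7 to 9 leaving out 1 mouse. Calls in heterozygous against wildtype mice and against the midpoint were 0 in every setting run. Without wildtype mouse 39 the sign turned for Gadd45a and Plk3 in heterozygous mice (-0.53 to 0.33 and -0.028 to 0.63 leaving out 1 mouse) and for Sfn in homozygous (-0.084 to 0.68) and heterozygous mice (-0.18 to 0.58), the last also without heterozygous mouse 37. None of these passed the test in any setting run. Of the other values of single members, 265 kept direction and side of the threshold and 22 kept direction and lost the call. Leaving out a heterozygous mouse kept every homozygous difference from wildtype unchanged and altered only the shared estimate of the spread behind its p-value. Otherwise, which property of the mice left out moved the calls was not tested. With 2 mice a genotype, changes near -1 on the log2 scale are mostly uncalled.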
